A study of Mus musculus with 12 samples.

Results

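The apolipoprotein genes Apoa1, Apoa2, Apoa4, Apoa5, Apob, Apoc1, Apoc2, Apoc3, Apoc4 and Apoe were followed across 12 RNA-seq libraries of mouse hepatocytes. They were taken by gene symbol, without use of their levels, and are 10 of the 54839 features of the table. All 10 passed edgeR's filter on low counts. Apolipoproteins are the protein part of lipoprotein particles, which carry triglyceride and cholesterol in blood. Apob is the scaffold on which hepatocytes build very low density lipoprotein, Apoa1 and Apoa2 are the main proteins of high density lipoprotein, and Apoe is the ligand by which remnant particles are taken up again. The smaller members act on particles already in the circulation: Apoc2 is the cofactor of lipoprotein lipase, Apoc3 opposes that lipase, and Apoa5 promotes it.

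The libraries form 4 groups of 3: Tom- oil, Tom+ oil, Tom- CCl4 and Tom+ CCl4. All mice were male p16-Tom mice on a C57BL/6 background, heterozygous for p16-CreERT2 and for R26-CAG-LSL-tdTomato-WPRE, and all received tamoxifen (80 mg/kg). In these mice a tamoxifen-dependent Cre is driven by p16Ink4a, a cell cycle inhibitor and senescence marker, so cells that expressed p16Ink4a when tamoxifen was given, and their descendants, become tdTomato-positive. CCl4, which injures mainly the pericentral hepatocytes that metabolise it, was given at 1 mL/kg every 3 days for 4 weeks, and the oil groups received corn oil, its vehicle. Tom+ and Tom- hepatocytes were sorted by FACS after dead cells had been gated out with DAPI, and strand-specific libraries were made from their polyA RNA. The age of the mice is not given. The labels do not say that the 3 libraries of a group came from separate mice, so p-values measure the spread between these libraries. In bulk libraries fewer cells of a type and less RNA per cell cannot be told apart.

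Total counts ranged from 37568584 to 75331424 per library. A feature added to the genome and taken as the tdTomato reporter stood at 1399 to 1448 CPM (counts scaled to the library total) in Tom+ CCl4 and at 115 to 253 in Tom- CCl4. In oil it went against the labels of 2 libraries, with 1772 CPM in the library labelled Tom- oil replicate 1 and 132.5 in the library labelled Tom+ oil replicate 2. Results that use the oil libraries are therefore given as labelled, and also without these 2 libraries where that changes a call or turns a direction. Hepatocyte markers summed to between 93941 and 135937 CPM in the 12 libraries, and none of the 7 that were listed was at 0. Levels are given as TPM (counts divided by gene length, then scaled to the same total) where genes are compared with each other. They are given as CPM scaled by edgeR's TMM factors where groups are compared. A gene was called at a Benjamini-Hochberg adjusted p under 0.05 over all genes and a log2 fold change beyond 0.75 in edgeR's quasi-likelihood test.

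Of the 10 genes, 8 lie in 2 clusters. Apoa1 (chr9:46228580-46230466, plus strand), Apoc3 (chr9:46232933-46235636, minus strand), Apoa4 (chr9:46240696-46243459, plus strand) and Apoa5 (chr9:46268633-46271919, plus strand) span 43.3 kb of mm10. Apoe (chr7:19696109-19699188), Apoc1 (chr7:19689481-19692660), Apoc4 (chr7:19678083-19681479) and Apoc2 (chr7:19671579-19677941) are all on the minus strand and span 27.6 kb. Apob (chr12:7977648-8016835, plus strand) and Apoa2 (chr1:171225054-171226379, plus strand) stand alone. The promoter windows of 3 genes of the Apoa1 cluster are shown because Apoa4, the member called with CCl4, lies between Apoa1 and Apoa5, which were not called. Each runs from 250 bases before to 50 bases after an annotated start (RefSeq, GRCm38.p6), 5′ to 3′, and a match to TATAAA is in capitals.
Apoa4 (chr9:46240594-46240893, plus strand): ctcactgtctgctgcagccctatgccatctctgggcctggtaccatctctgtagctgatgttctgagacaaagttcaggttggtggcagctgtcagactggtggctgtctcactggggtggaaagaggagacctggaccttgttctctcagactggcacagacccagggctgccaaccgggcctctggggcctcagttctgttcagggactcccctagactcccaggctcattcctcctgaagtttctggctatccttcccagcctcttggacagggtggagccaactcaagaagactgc
Apoa1 (chr9:46228380-46228679, plus strand): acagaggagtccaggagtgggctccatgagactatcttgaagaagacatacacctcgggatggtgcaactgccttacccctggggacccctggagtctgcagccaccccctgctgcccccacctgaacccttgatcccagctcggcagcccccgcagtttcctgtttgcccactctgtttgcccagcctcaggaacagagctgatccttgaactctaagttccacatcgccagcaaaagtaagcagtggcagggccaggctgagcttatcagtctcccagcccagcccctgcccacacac
Apoa5 (chr9:46268358-46268657, plus strand): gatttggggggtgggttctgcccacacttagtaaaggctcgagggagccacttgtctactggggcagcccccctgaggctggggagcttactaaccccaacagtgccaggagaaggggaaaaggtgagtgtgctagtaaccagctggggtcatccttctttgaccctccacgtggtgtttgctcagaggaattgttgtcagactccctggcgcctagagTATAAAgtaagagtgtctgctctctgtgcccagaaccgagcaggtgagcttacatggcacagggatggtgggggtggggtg

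TATAAA, the core of a TATA box, was found at -31 from the start in the Apoa5 window and in neither the Apoa4 nor the Apoa1 window. Windows were held for 8 of the 10 members, 12 windows in all because some genes have several starts. On either strand TATAAA was in 5 of the 12 windows and in 13.6% of 32851 promoter windows of the same length. Of the 5, 2 are overlapping Apoa5 windows that hold the same site. It lies at -31 from the annotated start of the window shown above and at -56 from that of the other window. AGGTCA, a nuclear receptor half-site, was in 3 of 12 against 16.3%, namely windows of Apoa2, Apoc2 and Apoc4. CAAAGTCCA, a sequence of the type bound by HNF4A, was in 0 of 12 against 0.475%. The matches to TATAAA on both strands of an Apoe window overlap each other. These counts describe letters in a window and say nothing of binding.

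By TPM, Apoe was the most abundant member with a mean of 20909 over the 12 libraries, the 2nd highest of all features, and Apoa2 followed with 15441, the 4th highest. Apoe was above Apoa2 in 12 of 12 libraries, although the ranges of both genes over the libraries overlapped. Apoc1 (5340 TPM) and Apoa1 (4817 TPM) could not be ordered, with Apoc1 above Apoa1 in 6 of 12 libraries. Apoc3 (1914 TPM) and Apob (1146 TPM) came next, and neither their ranges nor those of the genes beside them in the order overlapped. Apoa5 (401 TPM) was above Apoc4 (325 TPM) in 8 of 12 libraries. Apoc2 (175 TPM) was above Apoa4 (105 TPM) in 10 of 12. The 2 exceptions were Tom- CCl4 replicates 2 and 3.

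**Figure D1:**
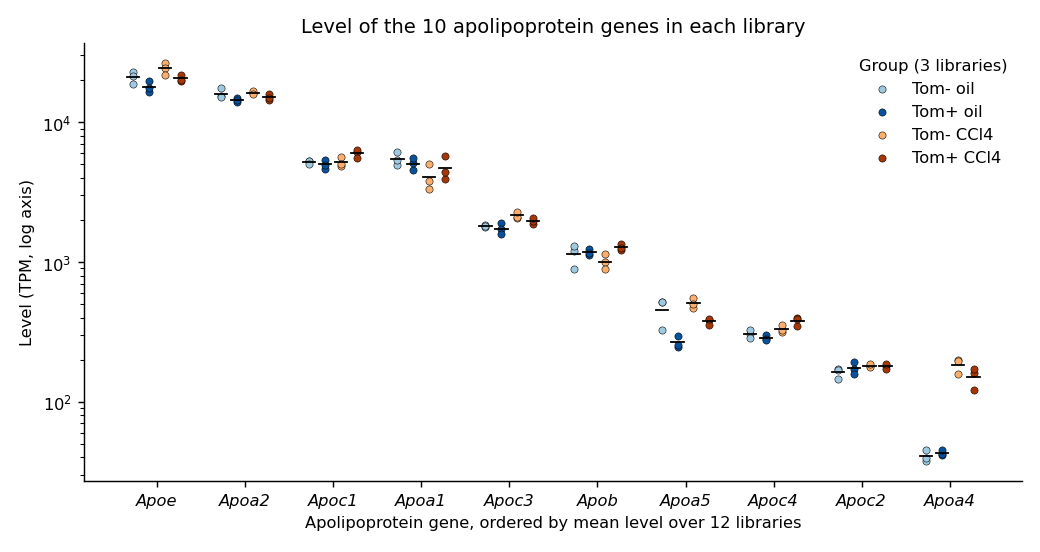
Level of the 10 genes in each library in TPM on a log axis, with genes ordered by their mean over 12 libraries. Points are libraries, colours are groups and bars are group means. Apoa4 alone separates by treatment, from 37.8 to 45.2 TPM in the 6 oil libraries and from 121 to 199 TPM in the 6 CCl4 libraries.

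Together the 10 genes held between 4.39% and 5.59% of all TPM. The share was 5.15% ± 0.338 (SD, n = 3) in Tom- oil, 4.61% ± 0.212 in Tom+ oil, 5.41% ± 0.179 in Tom- CCl4 and 5.06% ± 0.0144 in Tom+ CCl4. The Tom+ CCl4 libraries lay below the Tom- CCl4 libraries without overlap and above the Tom+ oil libraries without overlap (2-sided exact permutation test, p = 0.1 for each, the smallest that 3 libraries against 3 allow). By share of counts in place of TPM, the Tom+ CCl4 libraries again lay below Tom- CCl4 (p = 0.1), but they overlapped with Tom+ oil, with a difference of 0.233 percentage points in place of 0.453 (exact permutation test, p = 0.2). The same exact permutation test gave p = 0.2 for Tom+ against Tom- in oil and p = 0.4 for CCl4 against oil in Tom- hepatocytes. Apoe made up 44.7% ± 2.69 (SD, n = 3) of the members' TPM in Tom- CCl4 and 40.6% ± 2.30 in Tom+ CCl4, with groups that overlapped (p = 0.2, exact permutation test). Without Apoe the members held 2.98% ± 0.0493 of all TPM in Tom- CCl4 and 3.01% ± 0.123 in Tom+ CCl4 (p = 0.8, exact permutation test). In Tom+ oil this share was 2.81% ± 0.0493, lower than in Tom- oil (3.06% ± 0.137) and in Tom+ CCl4 without overlap (exact permutation test, p = 0.1 for each).

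Treatment with CCl4 was compared with corn oil in each fraction. Apoa4 rose in both, and it was the only member called. Apoa4 is a protein of chylomicrons and high density lipoprotein that mouse liver makes as well as intestine. The 3 Tom- oil libraries held 30.3, 30.0 and 33.9 CPM of it, and the 3 Tom- CCl4 libraries held 127, 162 and 169 CPM. In Tom+ hepatocytes it stood at 31.3, 32.9 and 36.0 CPM in oil and at 82.5, 111 and 126 CPM in CCl4. Every CCl4 library was above every oil library, and the 6 oil libraries lay close together while those of CCl4 were spread. The rise was 4.86-fold in Tom- hepatocytes (log2 2.28, SE 0.15, adjusted p = 1.2e-06, edgeR) and 3.19-fold in Tom+ hepatocytes (log2 1.67, SE 0.15, adjusted p = 2.2e-05, edgeR).

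With the counts of both fractions of a number added, which does not use the Tom label, Apoa4 stood at 31.1, 31.9 and 35.1 CPM in oil and 98.1, 133 and 147 CPM in CCl4. That was a rise of 3.86-fold (log2 1.95, SE 0.15, adjusted p = 5.1e-04, edgeR), and the 3 sums of each treatment did not overlap. Apoa4 was called in all 16 alternatives for each of the 3 contrasts, among them the fits without each library in turn. Without the 2 oil libraries that the reporter contradicts, the log2 fold change was 2.26 in Tom- (adjusted p = 0.00017, edgeR) and 1.67 in Tom+ hepatocytes (adjusted p = 0.00077, edgeR). The antisense features Gm47528 and Gm10680 overlap Apoa4 and held between 0.157 and 0.521 times its counts. With their counts added to those of Apoa4, the log2 fold change was 2.26 and 1.67.

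The share of all genes that were called was computed for each contrast. In Tom- hepatocytes 7.92% of the 17121 genes tested were called and 6.33% were called higher, against 1 of the 10 members. In Tom+ hepatocytes these values were 5.24% and 2.9%, again against 1 of 10, and for the summed fractions 4.78% and 3.34%. By the absence of overlap between groups, 5 of 10 members stood apart in Tom- hepatocytes beside 36% of all genes, 4 of 10 in Tom+ hepatocytes beside 29.3%, and 4 of 10 in the sums beside 33%. The median log2 fold change of the members was 0.24 in Tom- and 0.05 in Tom+ hepatocytes, and that of all genes was 0.00 in both.

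**Figure D2:**
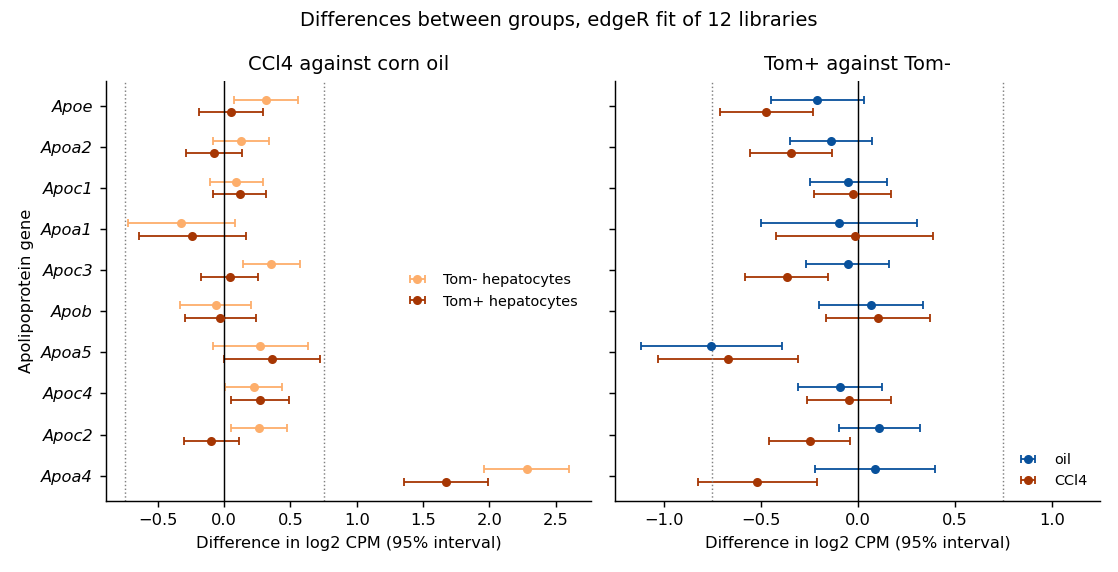
Difference in log2 CPM for each member with its 95% interval from edgeR, CCl4 minus oil in each fraction (left) and Tom+ minus Tom- in each treatment (right). Dotted lines mark 0.75 in either direction. On the left the intervals of Apoa4 lie wholly to the right of the dotted line, from 1.96 to 2.60 in Tom- and from 1.36 to 1.99 in Tom+ hepatocytes.

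None of the 3 regulators of lipoprotein lipase passed both thresholds with CCl4. Apoc3, the inhibitor, stood at 827, 748 and 758 CPM in Tom- oil and at 929, 957 and 1100 CPM in Tom- CCl4. These groups did not overlap, and the difference of 0.36 (log2, SE 0.10) had an adjusted p of 0.0277 (edgeR) but did not reach the fold threshold. By the adjusted p alone 2 of the 10 members were higher in this contrast, Apoa4 and Apoc3, beside 9.37% of all genes. Apoc3 did not pass without Tom- oil replicate 2 or 3 or Tom- CCl4 replicate 2 or 3 (adjusted p up to 0.107, edgeR). In Tom+ hepatocytes Apoc3 differed by 0.04 (log2, 95% interval -0.17 to 0.26). Apoc2, the cofactor, was at 49.2 to 62.2 CPM in Tom- oil and at 64.9 to 72.2 CPM in Tom- CCl4, a difference of 0.26 (adjusted p = 0.0809, edgeR), and it differed by -0.10 in Tom+ hepatocytes (95% interval -0.30 to 0.11). Apoa5 differed by 0.27 in Tom- and 0.36 in Tom+ hepatocytes (adjusted p = 0.287 and 0.206, edgeR).

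Apoe stood at 17604, 20240 and 19016 CPM in Tom- oil and at 25043, 23434 and 22185 CPM in Tom- CCl4, without overlap. The difference was 0.31 (log2, SE 0.11, adjusted p = 0.0713, edgeR). In Tom+ hepatocytes Apoe ranged from 14400 to 18184 CPM in oil and from 16105 to 17592 CPM in CCl4, and the difference was 0.05 (log2, 95% interval -0.19 to 0.29). Apoc4, a minor protein of triglyceride-rich particles, was 0.22 higher in Tom- and 0.27 higher in Tom+ hepatocytes on the log2 scale, without overlap in either fraction and without passing the test (adjusted p = 0.147 and 0.112, edgeR). Apoc1 differed by 0.09 and 0.12.

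Apoa1 had a lower mean in CCl4 than in oil in both fractions, without passing the test. Its level was 2698, 2782 and 3111 CPM in Tom- oil and 1833, 2091 and 2941 CPM in Tom- CCl4, so the groups overlapped. The difference was -0.32 (log2, 95% interval -0.73 to 0.08, adjusted p = 0.257, edgeR) in Tom- and -0.24 (95% interval -0.64 to 0.16, adjusted p = 0.472) in Tom+ hepatocytes. Apoa1 had the widest spread of the 10 members within groups (pooled SD 0.27 on the log2 scale). Tom- and Tom+ CCl4 libraries of the same number nevertheless stood close together, at 1833 and 1837 CPM in replicate 1, 2091 and 2074 CPM in replicate 2, and 2941 and 2876 CPM in replicate 3. Apoa2 differed by 0.13 and -0.08 and Apob by -0.06 and -0.03 (log2) in Tom- and Tom+ hepatocytes, with groups that overlapped and, in Tom+ hepatocytes, with values above 0 under library totals alone. Apoa1 and Apoa4, of the same cluster, thus had values of opposite sign with CCl4, while of the 2 only that of Apoa4 passed the test. Apoc3, which lies between them, differed by 0.36 in Tom- and by 0.04 in Tom+ hepatocytes (log2).

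Tom+ and Tom- hepatocytes of CCl4-treated mice were compared next. None of the 10 members passed both thresholds, beside 1.96% of all genes. By the adjusted p alone 4 members were lower in Tom+ hepatocytes, Apoe, Apoa5, Apoc3 and Apoa4, beside 3.83% of all genes called lower in this way. Their log2 fold changes were smaller than 0.75. The median of the 10 members was -0.30, and that of all genes was 0.00. The groups did not overlap for 6 members, Apoa2 and Apoc2 besides these 4, beside 28.7% of all genes. In TPM, where no composition factor is used, the groups did not overlap for 3 members that were lower in Tom+ hepatocytes, Apoa5, Apoc3 and Apoe, and for 1 that was higher, Apob. The share of all genes without overlap was not computed in TPM, so these counts have no background beside them.

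Apoe stood at 25043, 23434 and 22185 CPM in Tom- CCl4 and at 17592, 16105 and 17303 CPM in Tom+ CCl4. It was lower in each of the 3 Tom+ libraries, by 0.47 (log2, SE 0.11, adjusted p = 0.0287, edgeR). Apoa5 stood at 529, 626 and 603 CPM in Tom- CCl4 and at 365, 341 and 401 CPM in Tom+ CCl4. Its difference was the largest of the members, -0.67 (log2, SE 0.17, adjusted p = 0.0355, edgeR). Apoc3 was at 929 to 1100 CPM in Tom- CCl4 and at 717 to 844 CPM in Tom+ CCl4, a difference of -0.37 (log2, SE 0.10, adjusted p = 0.0472, edgeR). Apoa4, at the values given above, differed by -0.52 (log2, SE 0.14, adjusted p = 0.0492, edgeR), and every Tom+ CCl4 library still lay above the 6 oil libraries.

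Apoa2 (3880 to 4065 CPM in Tom- CCl4 and 2911 to 3272 CPM in Tom+ CCl4) differed by -0.34 (adjusted p = 0.0559, edgeR) and Apoc2 by -0.25 (adjusted p = 0.147, edgeR). The intervals of the remaining 4 members spanned 0. Apoa1 differed by -0.02 (log2, 95% interval -0.42 to 0.39), Apoc1 by -0.03 (-0.22 to 0.17), Apoc4 by -0.05 (-0.26 to 0.17) and Apob by 0.10 (-0.16 to 0.37). Under library totals alone Apoa1, Apoc1 and Apoc4 turned to 0.13, 0.12 and 0.10.

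The adjusted p of these 4 genes lay close to the threshold and passed it in some alternatives only. It ranged from 0.00021 to 0.125 for Apoe, from 0.0022 to 0.143 for Apoa5, from 0.0016 to 0.161 for Apoc3 and from 0.00018 to 0.179 for Apoa4. Apoe passed without Tom- CCl4 replicate 3 but not without any other single library of the contrast, Apoa4 passed without Tom- CCl4 replicate 1 or Tom+ CCl4 replicate 3 only, and Apoa5 and Apoc3 missed the threshold whichever of the 6 was left out. Without the 2 oil libraries, which enter through the shared spread, it was 0.0276 for Apoe, 0.037 for Apoa5, 0.0516 for Apoc3 and 0.0707 for Apoa4. The deviations of Tom+ and Tom- libraries with the same number were correlated, and with the number as a block within each treatment the adjusted p was 0.00048 for Apoe, 0.00018 for Apoa4, 0.0016 for Apoc3, 0.0052 for Apoa2 and 0.019 for Apoc2, while that of Apoa5 was 0.10 (edgeR). With library totals in place of TMM factors the median of all genes moved to 0.15 and none of the 10 passed by the adjusted p (0.0551 for Apoe and 0.0511 for Apoa5, edgeR).

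**Figure D3:**
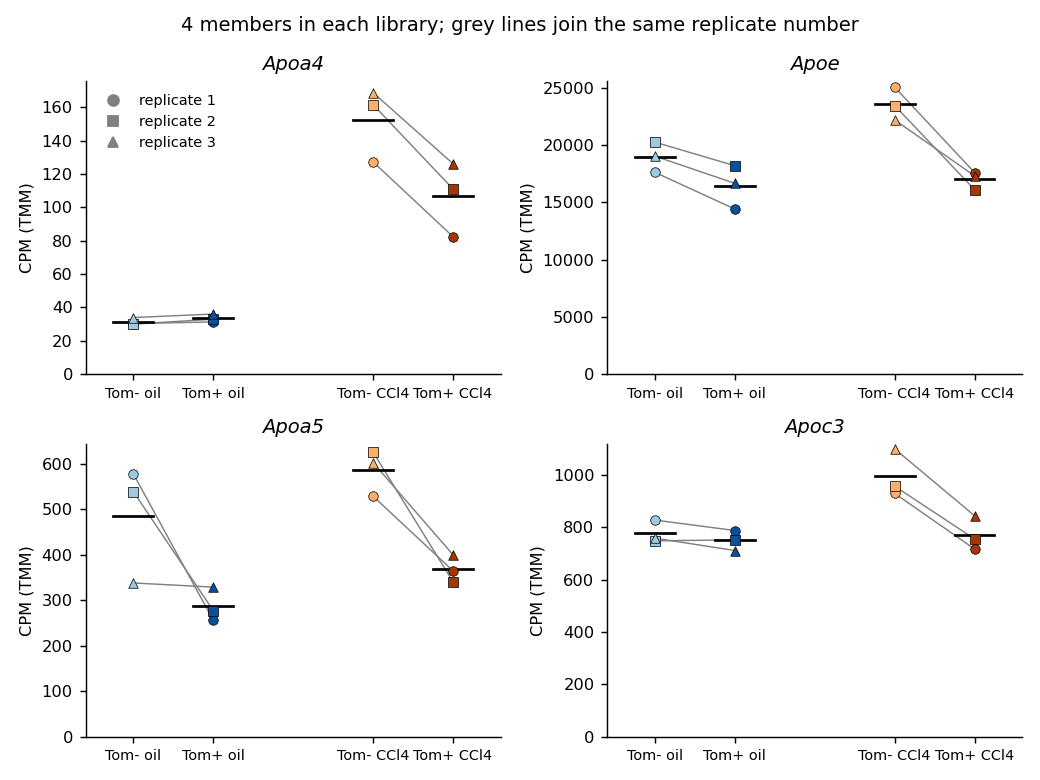
CPM of Apoa4, Apoe, Apoa5 and Apoc3 in each library, on axes that start at 0. Marker shapes are replicate numbers, grey lines join the Tom- and Tom+ libraries of a number and bars are group means. In CCl4 every line falls from Tom- to Tom+, and the 3 lines of Apoa4 in oil lie flat between 30.0 and 36.0 CPM.

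In oil-treated mice no member was called between Tom+ and Tom- hepatocytes, beside 0% of all genes. The count of members at an unadjusted p under 0.05 was 1, namely Apoa5. Apoa5 stood at 578, 539 and 338 CPM in Tom- oil and at 256, 277 and 329 CPM in Tom+ oil, a difference of -0.75 (log2, SE 0.17, adjusted p = 0.441, edgeR). It was the only member whose groups did not overlap, beside 11.7% of all genes, and Tom- oil replicate 3 lay close to the highest Tom+ library. DESeq2 gave -0.76 with an adjusted p of 0.0159, and without Tom- oil replicate 3 edgeR gave -0.96 with an adjusted p of 0.00846. Without the 2 libraries that the reporter contradicts the difference was -0.60 (adjusted p = 0.607, edgeR). By replicate number the Tom+ minus Tom- differences of Apoa5 were -1.17, -0.96 and -0.04. Of these pairs only replicate 3 had a reporter that differed between the fractions as labelled (140.1 CPM in Tom- and 1198.5 CPM in Tom+ oil).

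The other members differed between the fractions in oil by -0.21 to 0.11 on the log2 scale, with adjusted p from 0.758 to 0.939 (edgeR). Apoe was lower in Tom+ for each of the 3 numbers in oil as well, by 0.21 on average (95% interval -0.45 to 0.03), and by 0.35 without the 2 oil libraries (adjusted p = 0.679, edgeR). Without the 2 oil libraries Apob turned from 0.07 to -0.11 and Apoc1 from -0.05 to 0.03.

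Whether the Tom+ against Tom- difference itself changed with CCl4 was tested as an interaction. No member was called, beside 1.17% of all genes. Apoa4 had the largest value, -0.61 (log2, SE 0.20, adjusted p = 0.134, edgeR). Its Tom+ minus Tom- differences were -0.63, -0.54 and -0.42 in CCl4 replicates 1, 2 and 3 and 0.05, 0.13 and 0.09 in oil. Apoc2 had -0.36 (adjusted p = 0.183, edgeR), with -0.23, -0.28 and -0.24 in CCl4 and 0.06, 0.08 and 0.21 in oil. With the block, the adjusted p was 0.0012 for Apoa4, 0.022 for Apoc2 and 0.034 for Apoc3 (edgeR). The block compares same-numbered libraries, and within oil replicates 1 and 2 the reporter did not separate the fractions. It was at 1771.6 CPM in Tom- and 1588.5 CPM in Tom+ oil replicate 1, and at 158 and 132.5 CPM in replicate 2. Without the 2 oil libraries the interactions of these genes were -0.59, -0.44 and -0.36 without passing the test (adjusted p = 0.317, 0.206 and 0.354, edgeR). The interaction of Apoc3 with all 12 libraries was -0.31. Apoa5 had 0.09 (95% interval -0.42 to 0.60), so its Tom+ against Tom- difference was not shown to change with treatment. Its oil value rests on replicates 1 and 2 (-1.17 and -0.96), and replicate 3 had -0.04.

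Apoc2 and Apoc4 overlap Gm44805, a feature on the same strand that spans nearly all of both. It held 0.446 to 0.509 times the counts of Apoc4 and 2.45 to 3.18 times those of Apoc2. Whether reads were shared, and how they were divided, is not given in the sources used here, so the values of Apoc2 are uncertain. With the counts of Apoc2, Apoc4 and Gm44805 added, Tom+ against Tom- in CCl4 gave -0.07 (log2, adjusted p = 0.714, edgeR). In TPM, which uses no composition factor, Apoc2 was at 178 to 187 in Tom- CCl4 and at 173 to 186 in Tom+ CCl4, with groups that overlapped. Apoa5 overlaps the antisense feature Gm47544, and adding its counts gave -0.68 in CCl4 (adjusted p = 0.0341, edgeR).

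**Figure D4:**
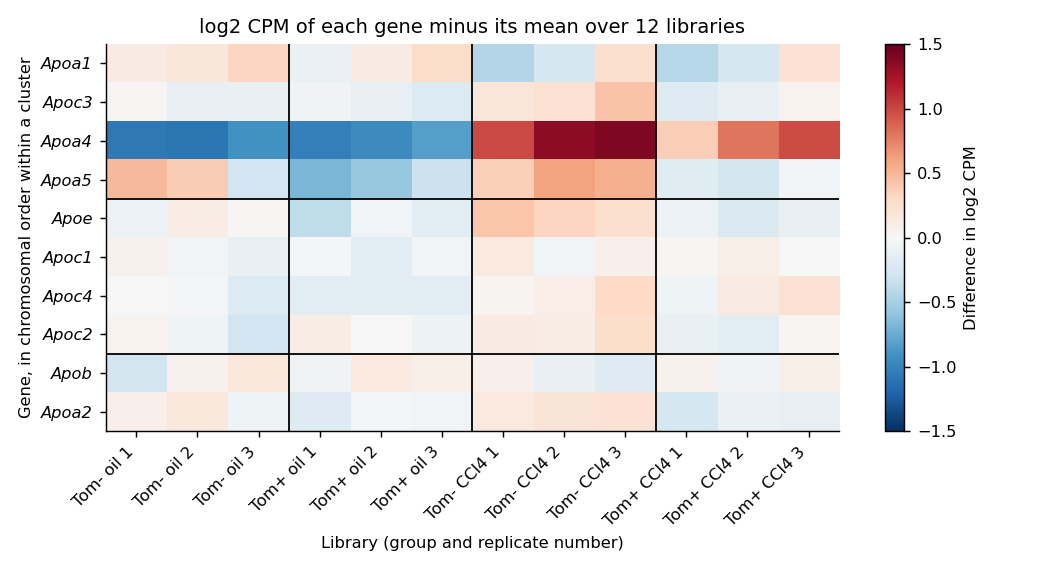
Difference in log2 CPM of each member (rows, in chromosomal order within the Apoa1 cluster above the upper line and the Apoe cluster above the lower line) from its own mean over 12 libraries (columns, grouped by treatment and fraction). Apoa4 is low in the 6 oil libraries and high in the 6 CCl4 libraries, while Apob and Apoc1 stay near 0.

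Within groups, the median pooled SD of the 10 genes was 0.12 on the log2 scale, with Apoa1 (0.27), Apoa5 (0.25) and Apoa4 (0.20) the widest, beside 0.14 for the 7763 genes at 10 CPM or more. Averaged over the 10 genes as deviations from each gene's mean, the Tom- CCl4 libraries stood highest, at 0.21, 0.25 and 0.35, and the Tom+ oil libraries lowest, at -0.26, -0.18 and -0.15. Tom+ CCl4 libraries were at -0.09, -0.02 and 0.13 and Tom- oil libraries at -0.06, -0.05 and -0.15. Without Apoa4 the Tom- CCl4 libraries were still highest, at 0.12, 0.13 and 0.24, while Tom+ CCl4 libraries were at -0.14, -0.11 and 0.04, Tom- oil libraries at 0.05, 0.07 and -0.06, and Tom+ oil libraries at -0.17, -0.09 and -0.07. The 5 genes whose log2 CPM followed the average of all 10 genes, Apoa4 included, most closely, of 7753 others at 10 CPM or more, were Slc17a2, Ctsh, Reep5, Bcap31 and Fgfr4, with Pearson r from 0.95 to 0.97 over the 12 libraries. The libraries share depth, groups and scaling factors, so these values of r are a description.

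Genes that act with the apolipoproteins were read from 5 lists. Among 13 other apolipoproteins and related acute phase proteins, 11 were tested, and with CCl4 0 rose and 2 fell in Tom- hepatocytes. The 2 were Saa1 and Saa2, serum amyloid A proteins that bind high density lipoprotein in the acute phase. Saa1 stood at 1975, 1615 and 549 CPM in Tom- oil and at 238, 92.2 and 170 CPM in Tom- CCl4, a log2 fold change of -3.05 (adjusted p = 0.0075, edgeR). It was at 296 to 463 CPM in Tom+ oil, between the Tom- oil and the Tom- CCl4 libraries. Saa2 fell by 3.55 on the log2 scale (adjusted p = 0.018, edgeR), and it was not called without Tom- oil replicate 1 (adjusted p = 0.0502), the library with the highest Saa2, or without both oil libraries that the reporter contradicts (adjusted p = 0.0656). In Tom+ hepatocytes neither was called, with -1.71 and -1.48 (adjusted p = 0.0785 and 0.256, edgeR).

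Among 13 genes of assembly, lipidation and editing, 1 rose in Tom- hepatocytes and none in Tom+ hepatocytes. It was Abcg1, a sterol exporter, which stood at 1.68 ± 0.387 CPM (SD, n = 3) in Tom- oil and at 4.59 ± 0.348 CPM in Tom- CCl4, a log2 fold change of 1.45 (adjusted p = 0.0040, edgeR). Mttp, which loads lipid onto Apob, was chosen for mention after its values were seen. It was at 308 to 361 CPM in Tom- oil and 420 to 425 CPM in Tom- CCl4, a difference of 0.32 (log2, adjusted p = 0.0544, edgeR).

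Among 11 plasma enzymes and transfer proteins, 3 rose in Tom- and 2 in Tom+ hepatocytes. Lpl, lipoprotein lipase, which adult hepatocytes make little of, stood at 0.791, 3.64 and 6.48 CPM in Tom- oil and at 29.5, 67.8 and 60.7 CPM in Tom- CCl4. It rose by 3.83 on the log2 scale in Tom- and by 4.32 in Tom+ hepatocytes (adjusted p = 0.0072 and 0.0064, edgeR). Angptl8, an inhibitor of lipoprotein lipase, rose from 16.3 to 24.3 CPM in Tom- oil to 41.0 to 52.5 CPM in Tom- CCl4 (log2 1.11, adjusted p = 0.0015, edgeR). Gpihbp1, the endothelial anchor of lipoprotein lipase, rose by 1.09 (adjusted p = 0.025, edgeR) in Tom- hepatocytes. The endothelial markers described below had a median of 1.09 in the same contrast. Gpihbp1 was not called without Tom- oil replicate 2 or 3 or Tom- CCl4 replicate 1 or 3 (adjusted p 0.0519 to 0.0869, edgeR). Pon1, a high density lipoprotein esterase, rose in Tom+ hepatocytes from 342 to 532 CPM in oil to 957 to 1087 CPM in CCl4 (log2 1.26, adjusted p = 0.00023, edgeR), with 0.51 in Tom- hepatocytes (adjusted p = 0.0323).

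Of 10 genes of receptors and uptake, none was called with CCl4 in Tom- hepatocytes and 1 rose in Tom+ hepatocytes. Vldlr, the very low density lipoprotein receptor, stood at 0.202, 1.30 and 0.147 CPM in Tom+ oil and at 4.06, 6.83 and 5.22 CPM in Tom+ CCl4, a rise of 3.28 on the log2 scale (adjusted p = 0.023, edgeR). That call was lost without Tom+ oil replicate 1 or 3 or Tom+ CCl4 replicate 2 or 3 (adjusted p 0.0503 to 0.0806), and with no filter on low counts (0.0628). Between the fractions in CCl4, Sort1, a sorting receptor that binds Apob, was higher in Tom+ hepatocytes by 0.90 (adjusted p = 0.028, edgeR), and the call was lost without Tom- CCl4 replicate 1 or 2 or Tom+ CCl4 replicate 2 or 3 (adjusted p 0.0695 to 0.128).

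Of 20 transcription factors known at these genes, none was called with CCl4 in either fraction. Between the fractions in CCl4, 1 was higher in Tom+ hepatocytes, Ppara, a fatty acid sensor. It stood at 64.7, 46.1 and 56.5 CPM in Tom- CCl4 and at 115, 85.8 and 90.7 CPM in Tom+ CCl4, a log2 fold change of 0.80 (adjusted p = 0.013, edgeR). It was not called without Tom- CCl4 replicate 2 or Tom+ CCl4 replicate 1 (adjusted p = 0.0742 and 0.0501). Creb3l3, known as an activator of Apoa4, was picked out after its values were seen. It was at 188 to 232 CPM in Tom- CCl4 and 140 to 156 CPM in Tom+ CCl4, -0.51 on the log2 scale (adjusted p = 0.011, edgeR), and it differed by -0.10 between CCl4 and oil in Tom- hepatocytes (adjusted p = 0.508).

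**Figure D5:**
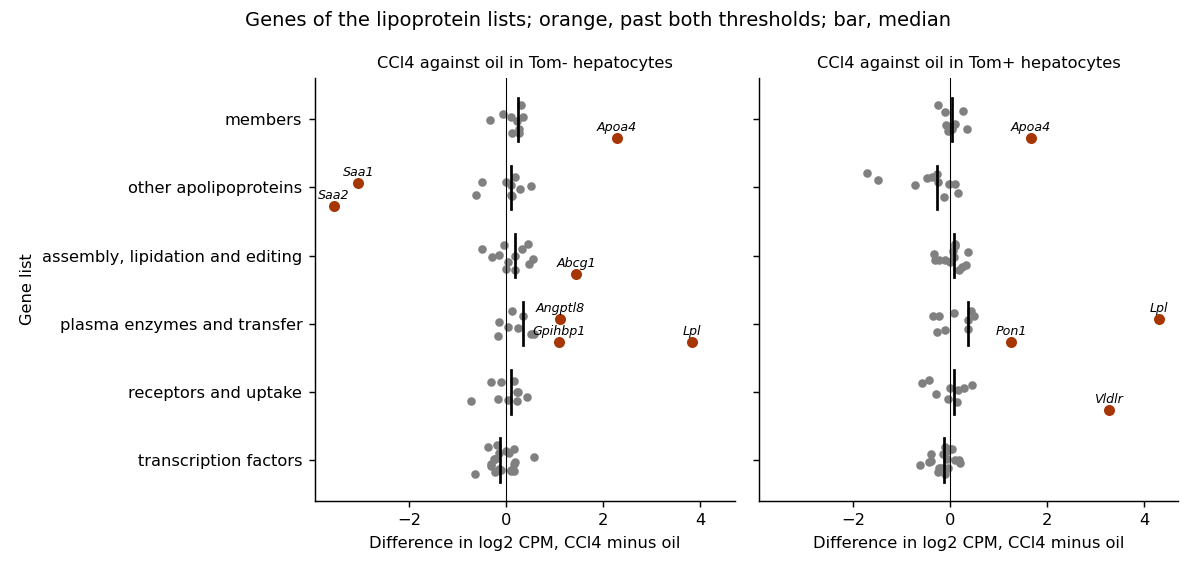
Difference in log2 CPM, CCl4 minus oil, for each tested gene of the members and of 5 lists in Tom- (left) and Tom+ (right) hepatocytes. Orange points with names passed both thresholds, grey points did not, and bars are list medians. The median of the plasma enzymes and transfer list lies at 0.35 and 0.37, and those of the transcription factors at -0.13 and -0.12.

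Markers of other cells and of the liver zones moved with the same contrasts. Their summed levels are CPM by library totals, without TMM factors. From oil to CCl4 the summed stellate cell markers went from 7.21 to 22.7 CPM up to 56.4 to 111 CPM, with 7 of 9 tested called higher in Tom- and 6 of 9 in Tom+ hepatocytes. Endothelial markers went from 129 to 188 CPM in Tom- oil to 320 to 331 CPM in Tom- CCl4, with 8 of 8 called higher, and were at 140 to 232 CPM in Tom+ oil and 181 to 239 CPM in Tom+ CCl4, with 0 of 8. Markers of macrophages, which also make Apoe, were at 21.0 to 110 CPM in Tom- oil, 33.9 to 165 CPM in Tom+ oil, 138 to 171 CPM in Tom- CCl4 and 87.8 to 250 CPM in Tom+ CCl4, with 0 of 12 called in either fraction. Cholangiocyte markers stood between 5.30 and 7.58 CPM in the oil libraries and between 8.03 and 18.6 CPM in the CCl4 libraries, and of the 2 tested 1 was called higher with CCl4 in Tom+ hepatocytes and none in Tom- hepatocytes. No marker was at 0 in all 12 libraries.

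Between the fractions in CCl4, markers of zone 1, the hepatocytes around the portal vein, summed to 7268 to 9135 CPM in Tom- and to 4771 to 6249 CPM in Tom+ hepatocytes, with 5 of 8 called lower. Markers of zone 3, the hepatocytes around the central vein, summed to 1476 to 2538 CPM in Tom- and to 3861 to 5133 CPM in Tom+ hepatocytes, with 0 of 9 called. Endothelial markers were lower in Tom+ hepatocytes, with 5 of 8 called. General hepatocyte markers were at 126566 to 135937 CPM in Tom- and at 108182 to 114685 CPM in Tom+ hepatocytes, with a median of -0.32 and 0 of 7 called, beside the median of -0.30 of the apolipoprotein genes. In Tom+ hepatocytes CCl4 against oil, 7 of 8 zone 1 markers were called lower and 5 of 9 zone 3 markers higher. In oil, zone 3 markers summed to 1980 to 5344 CPM in Tom- and to 811 to 2568 CPM in Tom+ hepatocytes. Zone 1 markers summed to 9503 to 12563 CPM in Tom- oil and to 9949 to 13270 CPM in Tom+ oil. Their median log2 differences were -1.02 and 0.26, with 0 called. In the interaction the medians were 2.14 for zone 3, with 0 of 9 called, and -1.32 for zone 1, with 4 of 8 called lower. The part of these cells and zones in the values of the apolipoprotein genes and of the list genes, Lpl and Gpihbp1 among them, was not tested.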

How the data were processed

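The expected counts that the authors deposited, per feature and without normalization, were analysed for 12 libraries in 4 groups of 3, assigned from the labels. Per the submitters' processing notes, the tools were fastp (v0.23.2), HISAT2 (v2.1.0) with the mm10 build, and DESeq2 (v1.42.1), which gave the DEGs of the study. The counting program and its strand setting are not given in the sources used here. The design had assumed whole counts, but 30.4% to 32.9% of each library's non-zero entries had a fractional part (tolerance 1e-06), and all were rounded. Of 54839 features 99.8% were matched to a symbol.

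edgeR (v4.0.16) in R (v4.3.3) was used with TMM factors, filterByExpr (17121 genes, 17743 for summed fractions) and the robust quasi-likelihood test, with a coefficient for each group. P-values were adjusted over all genes tested by the Benjamini-Hochberg method, and the thresholds were those of the study. Gene lengths in the same table were used for TPM. Alternatives were DESeq2 (v1.42.0), limma-voom (limma v3.58.1), other scaling factors and filters, fewer libraries and the replicate number as a block. Scripts were tested on simulated data. Shares were compared by exact permutation tests (SciPy v1.17.1), and figures were drawn with matplotlib (v3.10.9). The depth of 37568584 to 75331424 counts limits counting error only.

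The members, gene lists, tests and alternatives were chosen with earlier results of these data known. All 10 members were described. From each list, genes called in a contrast at a mean of at least 1 CPM were named, up to 4 per direction. The replicate numbers in the labels were checked as pairs: the deviations of same-numbered Tom+ and Tom- libraries from their group means correlated at 0.54 to 0.72 in CCl4 and at 0.35 to 0.59 in oil, over 7763 genes, and every pair exceeded the limit of 0.1 set for pairing. Across treatments same-numbered libraries correlated at 0.0049 to 0.30, also past that limit in some cases. The limit alone therefore does not show that libraries of a number came from the same mouse. The hepatocyte marker Tf was not a listed symbol and was not analysed here. A gene of the list of receptors and uptake is not reported here.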

Additional observations from a re-analysis of the deposited data

Results flagged for a closer look

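Apoa4 was flagged because its Tom+ minus Tom- difference was negative in all 3 numbered pairs of libraries in CCl4 and positive in all 3 in oil, an interaction of -0.61 on the log2 scale. edgeR's interaction test gave an adjusted p of 0.134. In the fit with the replicate block within each treatment it was 0.0012. Within oil replicates 1 and 2 the reporter did not separate the fractions, which limits the signs in oil and this fit. Without the 2 oil libraries that the reporter contradicts, the difference in oil was 0.06 and the interaction -0.59 (adjusted p = 0.317, edgeR).

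Apoc2 was flagged for the same pattern of signs, with an interaction of -0.36 (log2, adjusted p = 0.183, edgeR). With the replicate block the adjusted p was 0.022, under the same limit from the oil pairs. Without the 2 libraries the interaction was -0.44 (adjusted p = 0.206, edgeR). Apoc2 overlaps Gm44805, a feature on the same strand that held 2.45 to 3.18 times its counts. With the counts of Apoc2, Apoc4 and Gm44805 added, the interaction was -0.0046 (adjusted p = 0.991, edgeR). That sum cannot show the value of Apoc2 by itself.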

How the results depend on the processing

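The call of Apoa4 with CCl4 was kept in every alternative run in the 3 contrasts, with log2 fold changes from 2.20 to 2.39 in Tom-, 1.53 to 1.83 in Tom+ and 1.82 upwards for the summed fractions. With the adjusted p alone, 4 members were lower in Tom+ than Tom- hepatocytes in CCl4 and 2 were higher with CCl4 in Tom- hepatocytes, in place of 0 and 1. In oil, the count of members lower in Tom+ hepatocytes was 1 with DESeq2, and between 0 and 1 when each library was left out in turn, in place of 0. In Tom+ oil 6 of the 10 members held the rank they had over 12 libraries. The replicate block changed no call by both thresholds for any member. Across treatments the libraries share only a number, and with it as an additive block the adjusted p for CCl4 against oil in Tom- hepatocytes was 0.0479 for Apoe and 0.0289 for Apoa1, and in Tom+ hepatocytes 0.118 for Apoa1 (edgeR). Among all genes, the number called ranged over the alternatives from 77 to 682 for Tom+ against Tom- in CCl4 (336 as reported), 0 to 40 in oil (0), 902 to 1694 for CCl4 against oil in Tom- (1356), 482 to 1142 in Tom+ hepatocytes (897), 363 to 1444 for summed fractions (848) and 42 to 938 for the interaction (201). With library totals alone 154 genes were called higher and 225 lower in Tom+ CCl4 than Tom- CCl4, in place of 38 and 298, and 142 and 140 in the interaction, in place of 37 and 164. The cause of these changes was not tested.

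The direction of 45 member values turned, all for members at 0.087 or less in size on the log2 scale and with adjusted p of 0.42 or more under the alternative. With library totals alone, Tom+ against Tom- in CCl4 gave 0.13 for Apoa1, 0.12 for Apoc1 and 0.10 for Apoc4, and CCl4 against oil in Tom+ hepatocytes gave 0.011 for Apoa2 and 0.060 for Apob. Without the 2 oil libraries that the reporter contradicts, Tom+ against Tom- in oil gave -0.11 for Apob and 0.029 for Apoc1, CCl4 against oil in Tom+ hepatocytes gave 0.020 for Apob, and the interaction was -0.080 for Apoa5 and -0.066 for Apoc1. With upper-quartile factors the interaction was -0.0018 for Apob and -0.012 for Apoc1. With no filter the summed fractions gave -0.00027 for Apoa2. With overlapping features added, an alternative chosen after seeing the data like the CCl4 contrast without the 2 oil libraries, the interaction of Apoc4, with the counts of Apoc2 and Gm44805 included, was -0.0046.

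When each library, or both oil libraries that the reporter contradicts, were left out, Tom+ against Tom- in CCl4 ranged from -0.23 to 0.21 for Apoa1, -0.073 to 0.021 for Apoc1 and -0.11 to 0.033 for Apoc4, and in oil from -0.11 to 0.16 for Apob and -0.089 to 0.029 for Apoc1. CCl4 against oil ranged from -0.19 to 0.027 for Apob in Tom- hepatocytes, and in Tom+ hepatocytes from -0.088 to 0.020 for Apob, -0.035 to 0.14 for Apoe and -0.027 to 0.088 for Apoc3. The interaction ranged from -0.057 to 0.20 for Apob, -0.066 to 0.070 for Apoc1, -0.080 to 0.29 for Apoa5, -0.13 to 0.30 for Apoa1 and -0.015 to 0.13 for Apoc4. The summed fractions ranged from -0.029 to 0.058 for Apoa2 and -0.015 to 0.12 for Apoc2. Calls of list genes within a fraction or between fractions that were lost without a library are given beside those genes. In the summed fractions, the calls of Saa1, Saa2 and Abcg1 were lost without some of the sums. That of Lpl was lost without CCl4 replicate 3 (adjusted p = 0.064, edgeR).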
